A study of Mus musculus with 38 samples.

Results

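Cells make cholesterol and fatty acids from the same starting unit, acetyl-CoA, and 33 genes of these routes were followed here through cultured mouse kidney tumour cells, mouse kidney tumours and normal kidney. The genes were taken from a fixed list of 34 enzymes, sterol sensors and regulators, of which 33 were among the 21705 genes measured, and Hmgcs1 was not analysed here. Expression was measured by RNA sequencing in 38 libraries, which fell into 10 groups. The tumour mice carried a tetracycline-responsive MYC transgene, switched on in kidney epithelium by doxycycline (Dox) through a Ksp promoter-driven rtTA. MYC mice (MYC+) had this transgene alone. VM mice (Vhl-/-; MYC+) also lost the floxed Vhl gene through a tamoxifen-inducible KspCreERT2. VIM mice (Vhl-/-; MYC+; Ink-/-/Arf-/-) in addition lacked Ink4a/Arf in every cell of the body. The labels placed 3 libraries in each tumour group, all maintained on Dox, and 5 in normal kidney from wild type mice given vehicle, labelled B61, B62, KT1, KT2 and KT3; what B6 and KT stand for is not given in the sources used here. Of the MYC tumour libraries, 2 came from mouse 2983 and were averaged, so that the group held 2 mice. The remaining 24 libraries came from 1 cell line of each genotype, named MYC-2983, VM-3055 and VIM-3039, with 4 libraries kept on Dox (2 µg/ml) and 4 without it for 24 h. The labels gave no ages.

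In the mevalonate part of the pathway, acetyl-CoA units are built into isoprenoids, and the sterol part closes these into lanosterol and trims lanosterol to cholesterol. Fatty acid synthesis carboxylates acetyl-CoA to malonyl-CoA, joins malonyl-CoA units into palmitate, and passes palmitate to elongases and desaturases. Both routes are governed by the SREBP transcription factors, encoded by Srebf1 and Srebf2, which INSIG proteins hold in the endoplasmic reticulum while sterols are plentiful. MYC is known as a driver of anabolic metabolism, and the kidney tumours of patients that lack VHL are known for stored lipid and cholesterol esters.

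The values are estimated read counts after scaling, with each library's upper quartile at 1000, and are called units here. Libraries of cells held 12.4 to 36.6 M estimated reads and those of tissue 8.22 to 15.5 M, and a level worth 3 reads, taken as the floor, was 1.16 to 3.34 units in cells and 2.80 to 5.65 units in tissue. In the cells the engineered genes followed the labels: Vhl was at 433 to 543 units in MYC-2983 cells against 10.3 to 38.8 in VM-3055 and 8.32 to 24.9 in VIM-3039 cells, and Cdkn2a, which encodes Ink4a and Arf, was at 24.9 to 40.8 units in VIM-3039 cells against 3056 to 5701 in the other cells. Vhl was at 468 to 560 units in MYC tumours, 40.2 to 79.9 in VM tumours and 219 to 312 in VIM tumours, against 612 to 772 in kidney. Reads of the MYC transgene could not be told apart from those of mouse Myc, which was lower with Dox in each line (means of 676 against 1831, 384 against 1364 and 381 against 1479 units in MYC-2983, VM-3055 and VIM-3039). Immunoblots of the study showed that MYC protein depended on Dox in each of these lines. The Myc RNA values are therefore not taken as a measure of transgene induction. The kidney epithelial genes Cdh16, Pax8 and Epcam were above the floor in every library. Epcam was close to it in VM tumours, at 5.15 to 6.66 units, against 758 to 1996 in kidney. One kidney, labelled KT3, stood apart in many of the genes described below, and the tumour differences from kidney are given with it and then, for the called members, without it. Variance between cell libraries was 1.40 to 3.31 times that of read sampling (median gene), against 9.72 to 28.0 times in tissue. The labels did not say whether the 4 libraries of a cell group were separate cultures, so their p-values measure only the spread between these libraries, which may be technical.

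The 250 bases before the transcription start are printed for some of the members in the Dox results, so that the sequences can be set beside the changes. They come from RefSeq (GRCm38.p6) and hold, where present, CCAAT, the core read by NF-Y, and CACGTG, the E-box read by MYC and by SREBP-1. Idi1 lies at chr13:8885356-8885605, plus strand, Fasn at chr11:120824548-120824797, minus strand, Elovl6 at chr3:129532136-129532385, plus strand, Insig1 at chr5:28071162-28071411, plus strand, Insig2 at chr1:121332590-121332839, minus strand (the first of its windows) and Acss2 at chr2:155517793-155518042, plus strand. Each sequence is written 5′ to 3′ on the strand of its gene, and capitals mark CCAAT or CACGTG on either strand.

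Idi1: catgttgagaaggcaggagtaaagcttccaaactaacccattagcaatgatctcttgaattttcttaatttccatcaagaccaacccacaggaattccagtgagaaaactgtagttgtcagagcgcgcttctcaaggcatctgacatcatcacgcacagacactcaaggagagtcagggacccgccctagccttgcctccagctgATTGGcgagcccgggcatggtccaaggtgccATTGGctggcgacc
Fasn: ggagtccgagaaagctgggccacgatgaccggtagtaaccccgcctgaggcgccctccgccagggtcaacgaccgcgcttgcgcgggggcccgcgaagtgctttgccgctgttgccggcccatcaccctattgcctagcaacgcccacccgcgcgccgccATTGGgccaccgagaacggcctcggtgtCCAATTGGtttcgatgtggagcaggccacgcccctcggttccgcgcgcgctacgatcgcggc
Elovl6: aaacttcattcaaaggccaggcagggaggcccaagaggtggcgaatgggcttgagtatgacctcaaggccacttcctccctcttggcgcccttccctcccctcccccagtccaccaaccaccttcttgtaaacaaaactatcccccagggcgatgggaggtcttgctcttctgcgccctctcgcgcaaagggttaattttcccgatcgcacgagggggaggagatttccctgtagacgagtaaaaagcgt
Insig1: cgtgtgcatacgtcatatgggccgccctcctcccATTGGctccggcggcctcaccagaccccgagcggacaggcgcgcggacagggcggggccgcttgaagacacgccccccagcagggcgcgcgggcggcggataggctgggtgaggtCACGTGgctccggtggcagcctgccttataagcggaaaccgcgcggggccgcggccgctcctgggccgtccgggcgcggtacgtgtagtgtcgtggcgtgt
Insig2: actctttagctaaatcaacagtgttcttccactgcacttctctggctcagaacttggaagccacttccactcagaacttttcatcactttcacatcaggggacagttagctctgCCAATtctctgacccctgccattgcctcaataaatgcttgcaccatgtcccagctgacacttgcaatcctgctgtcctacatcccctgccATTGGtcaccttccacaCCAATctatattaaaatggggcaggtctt
Acss2: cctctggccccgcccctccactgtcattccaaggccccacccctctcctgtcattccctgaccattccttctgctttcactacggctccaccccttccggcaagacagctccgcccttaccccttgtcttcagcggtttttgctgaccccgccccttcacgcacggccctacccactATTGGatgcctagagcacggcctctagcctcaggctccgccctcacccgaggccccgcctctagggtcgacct

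Of the 33 members, 26 had a window of this kind, with 35 windows in all. CCAAT or its reverse complement ATTGG occurred in 23 of the 35 windows (65.7%), against 33.8% of the windows of this length before all 32536 annotated starts. CACGTG, which reads the same on both strands, was in 4 windows (11.4%, against 6.04%), those of Hsd17b7, Dhcr7, Insig1 and Elovl5. The sterol element TCACNCCAC was in none of the 35 windows, against 1.04% of all. Windows 2 and 3 of Insig2, not printed here, held none of these motifs. The printed members are not the set called with Dox, as Insig1 was called in no line. Acacb, Acaca, Tm7sf2 and Mvd were called with Dox but their windows are not printed. Those of Acacb, Tm7sf2 and Mvd held CCAAT or ATTGG, and that of Acaca held none of the motifs. The promoter window of Elovl6, which rose with Dox in all 3 lines, also held none of them, and a match or its absence describes the window only.

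The first comparison set cells kept on Dox against cells of the same line without it, in each line on its own. Elovl6 and Acacb were called higher with Dox in all 3 lines, and Fasn, Acaca and Idi1 in VM-3055 and VIM-3039. Tm7sf2 and Acss2 were called lower in VM-3055 and VIM-3039. A gene was called where limma gave a Benjamini-Hochberg adjusted p under 0.05 over all genes tested and the difference was over 1 on the log2(value + 1) scale, on which all differences below are given with their SE. In MYC-2983 cells 2 of 33 members were called higher and 0 lower, beside 4.49% of all genes tested higher and 15% lower. In VM-3055 cells 7 members were higher and 2 lower, beside 5.92% and 18.9% of all genes. In VIM-3039 cells 5 were higher and 3 lower, beside 7.67% and 16.6%. With 0 called lower in MYC-2983, 14 members were lower there at an unadjusted p under 0.05 by the same test. At the adjusted p alone 14 were lower, beside 44.0% of all genes. Median changes of the members against all genes were -0.00 against -0.13 in MYC-2983, 0.32 against -0.26 in VM-3055 and 0.06 against -0.15 in VIM-3039. No cells without the transgene were given Dox, so that Dox itself and MYC cannot be told apart.

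Cell makeup was read from marker lists. The 3 kidney epithelial markers Cdh16, Pax8 and Epcam summed to 10946 to 12476 units with Dox and 16169 to 17128 without in MYC-2983, to 5589 to 5716 and 12878 to 13290 in VM-3055, and to 5593 to 5704 and 9674 to 10363 in VIM-3039. Most of each sum was Cdh16, which was lower with Dox in each line, as was Pax8. Epcam was instead higher with Dox in VIM-3039, at 60.37 to 76.35 units against 31.32 to 46.82. Its ranges with and without Dox overlapped in MYC-2983 (51.99 to 61.76 and 36.09 to 52.08) and VM-3055 (194.9 to 227.5 and 211.9 to 220.5). The sum of the 4 fibroblast markers was also lower with Dox in each line (73.1 to 109.8 against 430 to 497 units in MYC-2983, 1.75 to 2.55 against 18.5 to 26.6 in VM-3055 and 2.42 to 12.5 against 43.9 to 73.1 in VIM-3039). Most of each sum was Col1a1. In MYC-2983 Dcn and Thy1 were also lower, but Lum was at 1.12 to 3.26 units with Dox and 0 to 1.74 without. At most 1 of the 4 markers was above the floor in a VM-3055 group, and 2 in a VIM-3039 group. The 7 adipocyte markers summed to at most 6.98 units in any cell library, with 2 of them at most above the floor in a group. The part of these markers in the results was not tested, and in bulk libraries fewer cells of a kind and less RNA per cell cannot be told apart.

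The elongase Elovl6, which lengthens palmitate to stearate, rose in every line. It was at 4441, 4499, 4658 and 4357 units in MYC-2983 with Dox and at 1819, 1876, 1875 and 1920.0 without (1.26 ± 0.03, adjusted p = 2.11e-17). In VM-3055 it was at 4474, 4235, 4601 and 4267 units with Dox and 1453, 1638, 1539 and 1479 without (1.52 ± 0.05, adjusted p = 8.72e-15). In VIM-3039 the values were 3959, 3710.1, 3609 and 3917 units with Dox and 1338, 1331, 1367 and 1337 without (1.50 ± 0.03, adjusted p = 1.18e-19). The 4 libraries with Dox lay above the 4 without in each line, and the ratio of the group means was 2.4, 2.88 and 2.83. Fasn, the synthase that makes palmitate, was at 14575, 14611, 13051 and 11945 units in VM-3055 with Dox and 4392, 4690.2, 4124 and 4481 without (1.61 ± 0.06, adjusted p = 1.18e-13). In VIM-3039 Fasn was at 18168, 17057, 15886 and 19645 units with Dox and 7074, 6805, 6494 and 7447 without (1.34 ± 0.05, adjusted p = 4.57e-16). Neither pair of groups overlapped. In MYC-2983 Fasn was at 16922, 16849, 17235 and 18206 units with Dox and 8646, 9116, 9435 and 9909 without, a change of 0.90 ± 0.04 (adjusted p = 1.26e-13) that missed the fold threshold. With TMM scaling in place of the upper quartile that change was 1.03 and was called.

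Acetyl-CoA carboxylase makes malonyl-CoA and is encoded by Acaca, the cytosolic form, and Acacb, the form at the mitochondrial surface. Acaca was at 1746, 1723, 1716 and 1523 units in VM-3055 with Dox and 653, 766, 581 and 666 without (1.33 ± 0.07, adjusted p = 7.12e-12), and at 2163, 2126, 2097 and 2210.2 and 1055, 1012, 987 and 1048 in VIM-3039 (1.07 ± 0.03, adjusted p = 3.77e-17). In MYC-2983 it was at 2137, 2066, 2005 and 2284 and 1211, 1254, 1313 and 1328 units (0.73 ± 0.04, adjusted p = 3.4e-12), below the fold threshold. The groups did not overlap in any line. Acacb was far lower, at 64.3, 72.3, 72.6 and 53.5 units in MYC-2983 with Dox and 11.2, 17.1, 19.7 and 18.5 without (1.94 ± 0.17, adjusted p = 9.53e-09). In VM-3055 Acacb was at 48, 35.7, 36.5 and 28.9 units with Dox and 2.65, 4.65, 1.55 and 5.32 without, where 2 of the 4 libraries without Dox were at or under the floor of 3 reads. In VIM-3039 it was at 7.64, 8.32, 4.59 and 4.85 units with Dox and 2.85, 0, 3.06 and 3.32 without, where 3 of 4 libraries were at or under the floor. The fitted differences of 3.14 ± 0.29, adjusted p = 1.92e-08 in VM-3055 and 1.32 ± 0.44, adjusted p = 0.00951 in VIM-3039 depend on the pseudocount, and with 10 in place of 1 the latter was 0.41 and not called. Without the second VIM-3039 library lacking Dox, which was at 0, it was 0.82. The 2 genes are near relatives, and reads shared between them could be split by the estimate.

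The suppliers of acetyl-CoA and of reducing power moved otherwise. Acss2, which makes acetyl-CoA from acetate, was at 197, 164, 189 and 142 units in VM-3055 with Dox and 357, 352, 375 and 374 without (-1.08 ± 0.09, adjusted p = 7.01e-09). In VIM-3039 Acss2 was at 313, 266, 259.8 and 297 units with Dox and 736, 683, 691 and 757 without (-1.34 ± 0.06, adjusted p = 1.61e-14). It was lower with Dox in MYC-2983 too, at -0.41 ± 0.06 (adjusted p = 4.49e-06), below the fold threshold. The call in VM-3055 was lost with TMM (-0.85), with quantile scaling (-0.82) and without the fourth library with Dox (-0.99). Acly, which splits citrate to acetyl-CoA, differed by -0.01 ± 0.03 in MYC-2983, 0.32 ± 0.04 in VM-3055 and 0.20 ± 0.04 in VIM-3039, with adjusted p of 0.852, 1.03e-06 and 3.1e-05. Me1, the malic enzyme that yields NADPH, differed by -0.49, -0.23 and 0.30 in the same order of lines. Acss2 overlaps Gss and Ggt7 in the annotation, and whether counting used strand is not given in the sources used here.

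**Figure D1:**
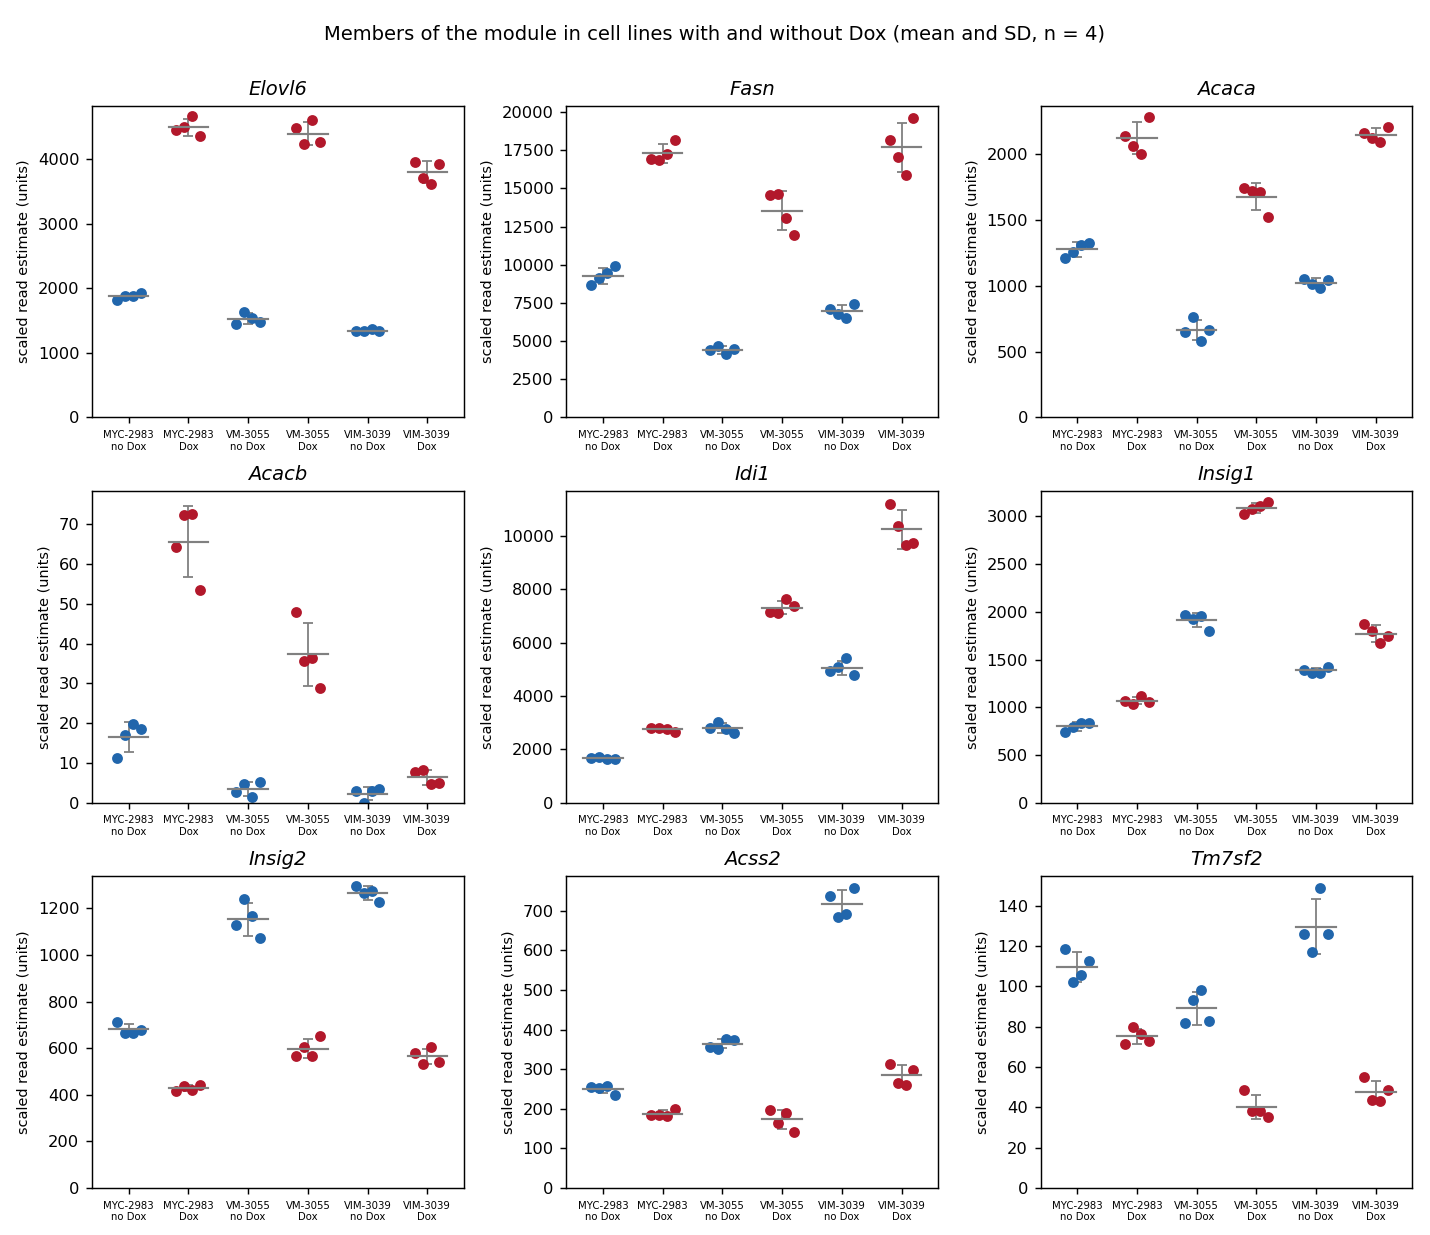
Units (reads scaled to an upper quartile of 1000) of 9 members in each library of the 6 cell groups, with bars at the mean and SD of 4 libraries. Points of Elovl6, Fasn, Acaca and Idi1 with Dox lie above those without in each line, while those of Insig2, Acss2 and Tm7sf2 lie below.

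Of the desaturases and the other elongases, none was called in any line. Scd1, a stearoyl-CoA desaturase, was lower with Dox at the adjusted p in all 3 lines (-0.36 in MYC-2983, -0.19 in VM-3055 and -0.43 in VIM-3039), though TMM scaling took the VM-3055 value to 0.03. Scd2, its close relative, was at 15467 to 16084 units in MYC-2983 with Dox and 13328 to 14196 without, a difference of 0.21 ± 0.03 (adjusted p = 2.73e-06). Scd2 differed by -0.02 in VM-3055 and 0.09 in VIM-3039. The ratio of Scd2 to Scd1 per exonic base was 6.07 ± 0.203 with Dox and 4.09 ± 0.132 without in MYC-2983, 33.9 ± 1.48 and 29.9 ± 0.765 in VM-3055, and 5.49 ± 0.123 and 3.83 ± 0.0548 in VIM-3039 (SD, n = 4). Scd2 was therefore the more abundant of the pair per base throughout the cells. Fads1 and Fads2 desaturate polyunsaturated fatty acids. Fads1 was lower with Dox at the adjusted p in all 3 lines (-0.56, -0.54 and -0.45). Fads2 differed by -0.21, -0.06 and -0.12, Elovl5, an elongase of polyunsaturated chains, by -0.03, 0.20 and 0.19, and Elovl1, an elongase of very long chains, by -0.17, 0.34 and 0.06.

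Among the mevalonate enzymes, Idi1, the isomerase that makes the reactive isoprenoid unit, gave the largest change in VM-3055 and VIM-3039. Idi1 was at 7140.3, 7128, 7636 and 7378 units in VM-3055 with Dox and 2802, 3044, 2775 and 2606 without (1.38 ± 0.05, adjusted p = 3.95e-14). In VIM-3039 it was at 11218, 10369, 9660.1 and 9762 and 4940.5, 5076, 5423 and 4799 units (1.02 ± 0.04, adjusted p = 3.99e-15), and in MYC-2983 at 2815, 2820.0, 2761 and 2659.9 and 1686, 1698, 1626 and 1655 (0.73 ± 0.03, adjusted p = 2.45e-14). The 2 groups of each line did not overlap, and the change in MYC-2983 stayed under the fold threshold. In VIM-3039 it was 0.97 without the first library with Dox and 0.99 without the fourth lacking it, just under the threshold. Mvd, the decarboxylase before Idi1, was at 1098, 1026, 1006 and 966 units in VM-3055 with Dox and 482, 428, 536 and 487 without (1.08 ± 0.06, adjusted p = 4.56e-11). Its difference was 0.23 ± 0.04 in MYC-2983 and 0.47 ± 0.05 in VIM-3039, both past the adjusted p but not the fold. Mvk and Pmvk, the kinases of mevalonate and phosphomevalonate, were not called: in the order MYC-2983, VM-3055 and VIM-3039, Mvk differed by -0.15, 0.03 and -0.32 and Pmvk by 0.16, 0.66 and 0.02. Fdps, which makes farnesyl diphosphate, differed in sign, with -0.07 ± 0.03 in MYC-2983, 0.17 ± 0.05 in VM-3055 and -0.40 ± 0.04 in VIM-3039 (adjusted p = 0.0316, 0.00317 and 1.21e-09), the first of these turning to 0.06 with TMM.

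The sterol enzymes showed a called change in 1 of 10 members, Tm7sf2, a sterol reductase acting after Cyp51. Tm7sf2 was at 48.8, 38.3, 38.2 and 35.1 units in VM-3055 with Dox and 82, 93.4, 98.4 and 82.8 without (-1.14 ± 0.14, adjusted p = 9.51e-07). In VIM-3039 it was at 54.8, 43.7, 43.3 and 48.5 and 126, 117, 149 and 126 units (-1.43 ± 0.13, adjusted p = 1.32e-09). The libraries with Dox were the lower in both lines without overlap, and MYC-2983 showed -0.54 ± 0.09 (adjusted p = 2.65e-05). The call in VM-3055 was lost with TMM (-0.92) and quantile scaling (-0.48), and reads of Tm7sf2 could not be told apart from an overlapping gene on its strand, 1110014N23Rik. Sqle, the squalene epoxidase, was at 3145, 3116, 3231 and 3033 units in MYC-2983 with Dox and 2423, 2444, 2388 and 2447 without (0.37 ± 0.03, adjusted p = 2.07e-10). Sqle changed by 0.42 ± 0.04 (adjusted p = 2.22e-08) in VM-3055 and 0.09 ± 0.03 (adjusted p = 0.0209) in VIM-3039, all under the fold threshold. Lss, the cyclase that forms lanosterol, changed by 0.31, 0.54 and 0.21, Cyp51, the lanosterol demethylase, by 0.20, 0.72 and 0.10, and Dhcr7, which makes the last double-bond reduction, by 0.43, 0.82 and 0.67, each past the adjusted p in all 3 lines. Fdft1, the squalene synthase, differed by 0.15, 0.36 and -0.06, and Sc4mol, a methyl sterol oxidase also known as Msmo1, by -0.27, 0.32 and -0.30. Nsdhl and Hsd17b7 act with Sc4mol in removing methyl groups. Nsdhl differed by 0.20, 0.79 and -0.02, Hsd17b7 by -0.56, -0.22 and -0.58, and the sterol isomerase Ebp by -0.08, 0.05 and -0.25.

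The regulators split. Srebf2, which encodes the SREBP that chiefly drives cholesterol genes, was at 4901 to 5289 units in MYC-2983 with Dox and 4794 to 5361 without, and its difference was -0.00 ± 0.03 there, -0.06 ± 0.05 in VM-3055 and -0.04 ± 0.04 in VIM-3039 (adjusted p = 0.906, 0.263 and 0.32). Srebf1, whose product chiefly drives fatty acid genes, was lower with Dox at the adjusted p in each line (-0.27 ± 0.03, -0.58 ± 0.07 and -0.34 ± 0.04), under the fold threshold. The fatty acid enzymes Fasn, Acaca and Elovl6 were thus higher in the groups in which Srebf1 RNA was lower. Insig1, an anchor of the SREBPs that sterol-regulated transcription also controls, was at 3026, 3082, 3104 and 3146 units in VM-3055 with Dox and 1971, 1929, 1957 and 1803 without (0.69 ± 0.04, adjusted p = 6.2e-11). Insig2, the second anchor, was at 578, 534, 606 and 540.5 units in VIM-3039 with Dox and 1294, 1266, 1276 and 1226 without (-1.16 ± 0.04, adjusted p = 5.3e-16), the 1 call among the regulators in that line. Insig2 differed by -0.67 ± 0.04 in MYC-2983 and -0.95 ± 0.06 in VM-3055, and Insig1 by 0.42 ± 0.04 in MYC-2983 and 0.35 ± 0.04 in VIM-3039, all past the adjusted p only. The ratio of Insig1 to Insig2 per exonic base was 3.27 ± 0.185 with Dox and 1.54 ± 0.127 without in MYC-2983, 6.8 ± 0.389 and 2.18 ± 0.107 in VM-3055, and 4.13 ± 0.356 and 1.44 ± 0.0581 in VIM-3039 (SD, n = 4). The ranges with and without Dox did not overlap in any line. Stard4, a cytosolic cholesterol carrier, was at 1723, 1610.2, 1623 and 1676 units in VM-3055 with Dox and 718, 816, 702 and 754 without (1.15 ± 0.05, adjusted p = 9.54e-13), and changed by 0.57 in MYC-2983 and 0.69 in VIM-3039.

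**Figure D2:**
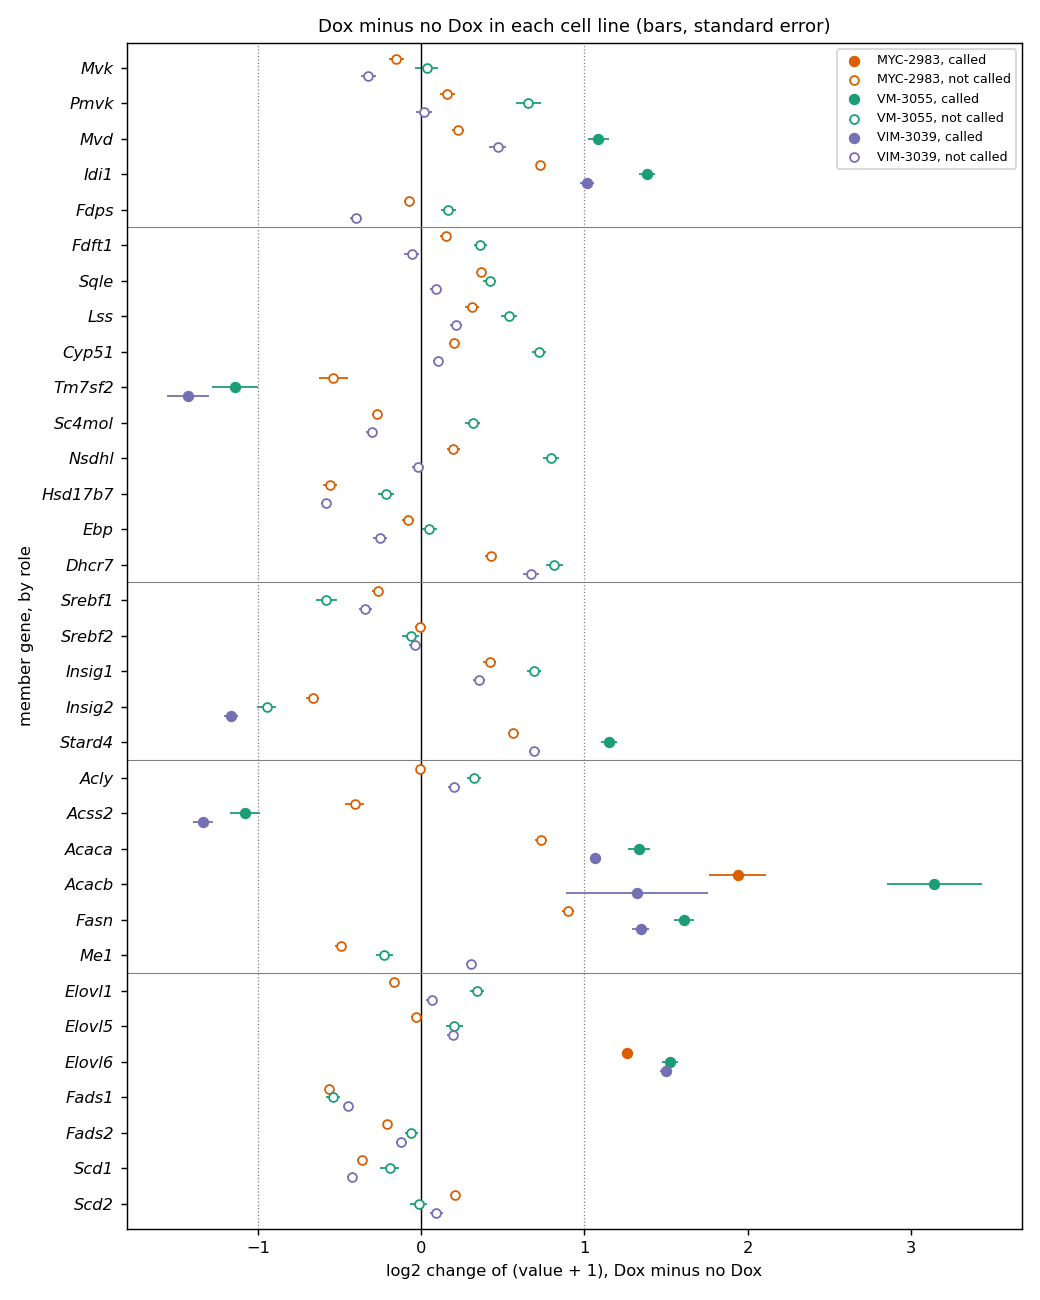
Difference with Dox minus without Dox on the log2(value + 1) scale, with SE, for 33 members in 3 cell lines (n = 4 libraries a group), grouped by role; filled points were called. Elovl6 and Acacb are filled in all 3 lines, with Elovl6 at 1.26, 1.52 and 1.50.

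By the adjusted p alone, 12 of 33 members were higher with Dox in all 3 lines, beside 22.5% of the 13378 genes tested in all 3. These were Mvd, Idi1, Sqle, Lss, Cyp51, Dhcr7, Insig1, Stard4, Acaca, Acacb, Fasn and Elovl6. The 7 members lower in all 3 lines, beside 33.5% of genes, were Tm7sf2, Hsd17b7, Srebf1, Insig2, Acss2, Fads1 and Scd1. With TMM scaling Hsd17b7 and Scd1 were at 0.01 and 0.03 in VM-3055. With the fold threshold 2 members (Acacb and Elovl6) were higher in all 3, beside 2.24% of genes, and 0 were lower in all 3, beside 8.23%. Fdps, Sc4mol, Me1 and Elovl1 passed the adjusted p in opposite directions in different lines.

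Whether the response to Dox differed between lines was tested as an interaction. Acacb was the 1 member called higher in VM-3055 against MYC-2983 (a difference of changes of 1.20, adjusted p = 0.00958), with 0 lower (5 at an unadjusted p under 0.05 by limma), beside 3.26% of genes higher and 5.53% lower. In VIM-3039 against MYC-2983 0 members were called in either direction by limma, beside 4.54% and 4.52% of genes, with 12 higher and 11 lower at an unadjusted p under 0.05. At the adjusted p alone 12 were higher and 10 lower there, beside 23.9% and 23.6% of genes. In VIM-3039 against VM-3055 Acacb was the 1 member called lower (-1.82, adjusted p = 0.0142) and 0 were called higher (2 at an unadjusted p under 0.05 by limma), beside 2.35% of genes lower and 3.7% higher. The calls of Acacb rest on its few reads, and the first was lost with a pseudocount of 10 and without the third VM-3055 library lacking Dox (0.96), and the second with one of 0.1. By the adjusted p alone 23 members had the more positive change in VM-3055 than in MYC-2983 and 5 the less positive, beside 17.5% and 28.7% of genes. Against VIM-3039, 21 members had the more positive change in VM-3055 and 2 in VIM-3039, beside 10.5% and 22.8% of genes. Mvd differed most among the mevalonate enzymes, by 0.86 ± 0.08 (adjusted p = 1.92e-08) between VM-3055 and MYC-2983, and Idi1 by 0.65 ± 0.06 (adjusted p = 7.79e-09). For Fasn the interaction was 0.71 ± 0.08 (adjusted p = 4.01e-07), for Sqle 0.05 ± 0.04 (adjusted p = 0.313), for Scd1 0.17 ± 0.06 (adjusted p = 0.0315), for Srebf1 -0.31 ± 0.08 (adjusted p = 0.00251) and for Srebf2 -0.06 ± 0.06 (adjusted p = 0.48) between VM-3055 and MYC-2983.

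Other genes of the pathway, from a list of 39 of which 37 were in the table, gave 4 of 36 tested higher and 3 lower with Dox in MYC-2983, 5 of 33 and 3 in VM-3055, and 3 of 34 and 3 in VIM-3039. Tmem97, which binds the cholesterol transporter NPC1 and limits it, was called higher in all 3 lines (1.14, 1.89 and 1.62), as was Elovl4, an elongase of very long chains (1.36, 1.23 and 1.05). Acat2, which joins acetyl-CoA units, was called higher in VM-3055 (1.37). The sterol reductase Lbr, which shares the step of Tm7sf2, was called higher in VM-3055 (1.09) and VIM-3039 (1.27), while Tm7sf2 was called lower in both. Abca1, the exporter of cholesterol, was lower in MYC-2983 (-1.62) and VM-3055 (-2.30).

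The second comparison set the lines against each other with Dox. Sterol enzymes were higher in VIM-3039 than in MYC-2983, with 6 of 10 called, and Me1, Cyp51, Idi1, Nsdhl and Hsd17b7 were called higher in both Vhl-deleted lines. Srebf1 was called lower in both. In VM-3055 against MYC-2983, 6 members were higher and 2 lower, beside 6.54% and 18.1% of all genes. In VIM-3039 against MYC-2983, 11 were higher and 2 lower, beside 5.66% and 18.3%. In VIM-3039 against VM-3055, 3 were higher and 1 lower, beside 9.69% and 9.45%. Each genotype is 1 line, the first 2 of these comparisons share the MYC-2983 libraries, and by their sample numbers the MYC-2983 libraries formed a set of their own, so that genotype, line and set cannot be told apart.

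Me1 was at 1034, 924, 982 and 985 units in MYC-2983, 7060.5, 6914, 7587 and 7233 in VM-3055 and 4939, 5103, 4982 and 4989 in VIM-3039 (2.87 ± 0.04, adjusted p = 1.14e-15 and 2.35 ± 0.03, adjusted p = 4.14e-16 against MYC-2983). All libraries of the Vhl-deleted lines were thus above those of MYC-2983, by 7.33-fold and 5.1-fold in the means. Cyp51 was at 3030.0, 2974, 2876 and 2977 units in MYC-2983, 9744, 9676, 10064 and 9996 in VM-3055 and 7377, 7097, 6806 and 7258 in VIM-3039 (1.74 ± 0.03, adjusted p = 4.93e-15 and 1.27 ± 0.03, adjusted p = 6.61e-14). Nsdhl was higher in each line than in the one before it, with 539, 546, 569 and 526 units in MYC-2983, 1077, 1132, 1146 and 1150.0 in VM-3055 and 2459, 2279, 2179 and 2455 in VIM-3039, and was called in all 3 pairs (VIM-3039 minus VM-3055, 1.05 ± 0.04, adjusted p = 1.49e-12). Hsd17b7 differed by 1.20 ± 0.04 and 1.71 ± 0.04 and Idi1 by 1.40 ± 0.03 and 1.89 ± 0.04 from MYC-2983, in VM-3055 and VIM-3039 in that order. Insig1 was called in VM-3055 alone (1.53 ± 0.03, adjusted p = 4.57e-14), against 0.73 ± 0.04 (adjusted p = 2.73e-10) in VIM-3039.

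In VIM-3039 the calls against MYC-2983 also took in Sc4mol (1.50 ± 0.04, adjusted p = 1.13e-13), Lss (1.35 ± 0.05, adjusted p = 5.07e-12), Mvd (1.29 ± 0.06, adjusted p = 4.11e-11), Fdft1 (1.08 ± 0.05, adjusted p = 9.5e-11) and Fads2 (1.01 ± 0.03, adjusted p = 8.93e-13). Of these, VM-3055 gave 0.76 for Sc4mol, 0.74 for Lss, 0.56 for Mvd, 0.99 for Fdft1 and 0.09 for Fads2. Without the fourth VIM-3039 library with Dox, Fads2 was at 0.99, under the fold threshold, and without the third MYC-2983 library Fdft1 in VM-3055 was at 1.01 and was called. Scd1 went opposite ways in the lines. It was at 2386, 2260.5, 2245 and 2426 units in MYC-2983, 652, 627, 695 and 608 in VM-3055 and 4949.7, 4823, 4866 and 5173 in VIM-3039, which gave -1.85 ± 0.04, adjusted p = 1.88e-13 for VM-3055, 1.09 ± 0.03, adjusted p = 7.71e-13 for VIM-3039 and 2.94 ± 0.04, adjusted p = 4.74e-18 between the latter and VM-3055. Scd2 was at 15467 to 16084, 23687 to 25874 and 29154 to 32231 units in the same order and was not called, though with TMM scaling the difference of VIM-3039 from MYC-2983 was 1.09 and was called. The Scd2 to Scd1 ratio per base in VM-3055 was hence the highest among the lines. Fads1 was called higher in VIM-3039 than in VM-3055 (1.18 ± 0.03, adjusted p = 4.6e-15). Srebf1 was at 1938, 1997, 2138 and 2012 units in MYC-2983, 803, 755, 658 and 725 in VM-3055 and 1009, 953, 959 and 954 in VIM-3039 (-1.46 ± 0.05, adjusted p = 1.39e-11 and -1.06 ± 0.03, adjusted p = 1.73e-12), and the latter call was lost with TMM (-0.91), with quantile scaling (-0.95) and in the cells without Dox (-0.98). Acacb was lower in VIM-3039 than in MYC-2983 (-3.21 ± 0.21, adjusted p = 3.17e-09) and VM-3055 (-2.40 ± 0.24, adjusted p = 1.88e-07). Fasn differed by -0.36 ± 0.06 (adjusted p = 5.33e-05) in VM-3055 and 0.03 ± 0.05 (adjusted p = 0.644) in VIM-3039, Sqle by 0.68 ± 0.03 and 0.54 ± 0.03, and Srebf2 by -0.16 ± 0.04 and -0.20 ± 0.04, none of them past the fold threshold. The other members, not called in either line against MYC-2983, were Mvk, Pmvk, Fdps, Tm7sf2, Ebp, Dhcr7, Insig2, Stard4, Acly, Acss2, Acaca, Elovl1, Elovl5, Elovl6 and Fads1, with differences from -0.90 to 0.96.

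Without Dox the same comparison gave 3 members higher and 4 lower in VM-3055 than in MYC-2983. Me1 (2.61), Cyp51 (1.21) and Insig1 (1.26) were again called higher, and Srebf1 (-1.15) and Scd1 (-2.02) lower, and Fasn (-1.07) and Acacb (-2.02) were called lower without Dox but not with it. Of all genes, 8.36% were higher and 16.6% lower. Idi1 (0.75), Nsdhl (0.45) and Hsd17b7 (0.85), called in VM-3055 with Dox, were not called without it. In VIM-3039 against MYC-2983, 14 members were higher and 1 lower without Dox, beside 6.88% and 19.3% of all genes. In VIM-3039 against VM-3055, 5 were higher and 1 lower, beside 9.21% and 12.5%, and Acacb, called lower with Dox, was at -0.57 (adjusted p = 0.295). Of the other pathway genes, 3 of 36 were higher and 6 lower with Dox in VM-3055 against MYC-2983, 6 of 36 and 6 in VIM-3039 against MYC-2983, and 1 of 34 and 0 in VIM-3039 against VM-3055.

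**Figure D3:**
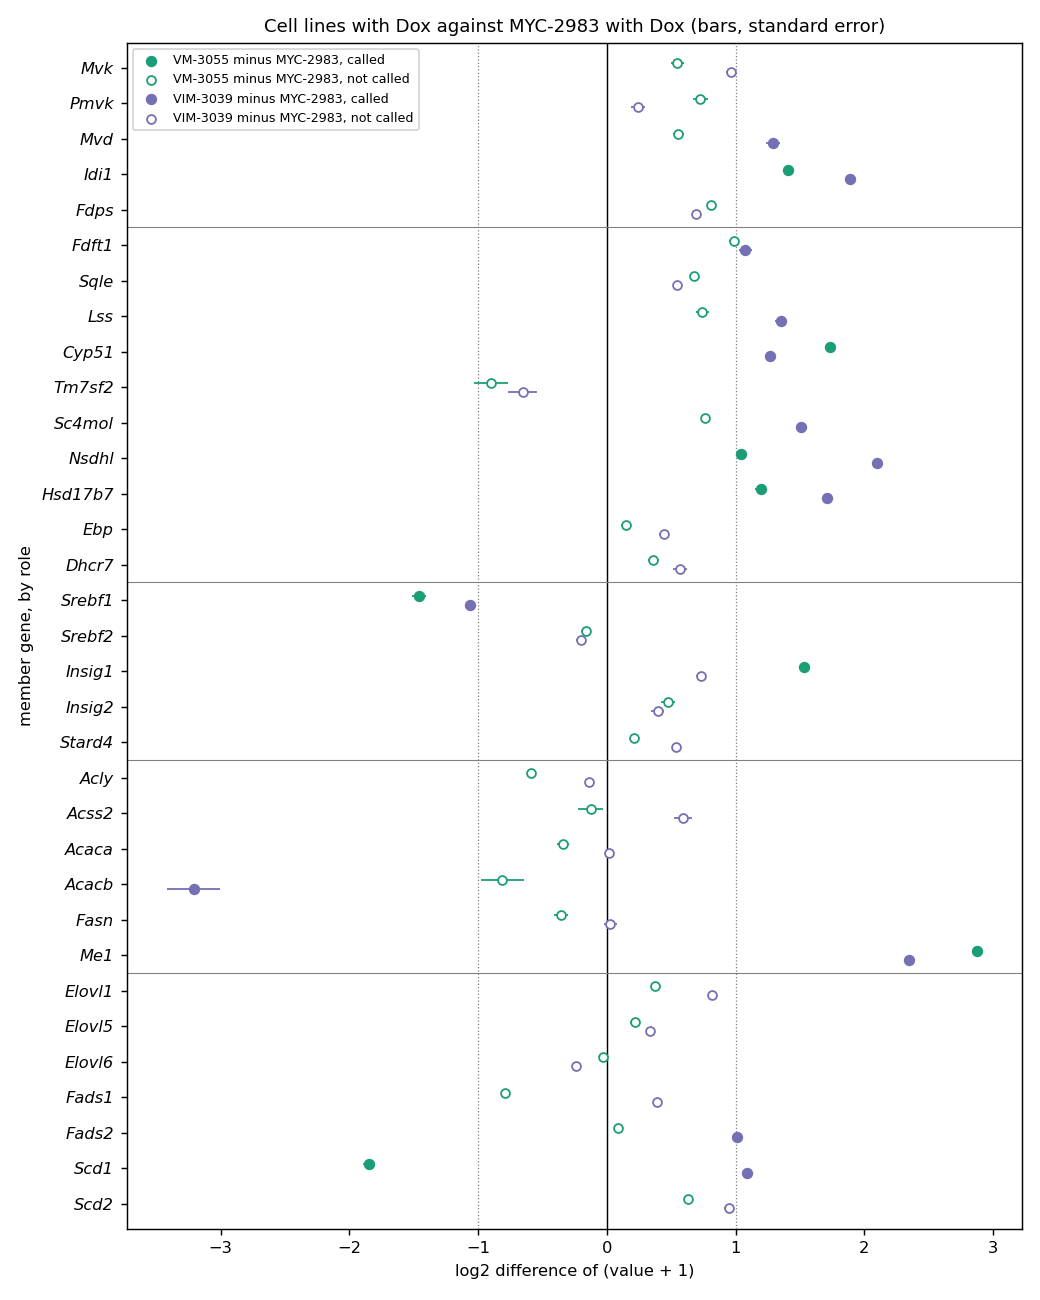
Difference of VM-3055 and of VIM-3039 cells from MYC-2983 cells, all with Dox, on the log2(value + 1) scale with SE (n = 4 libraries a line) for 33 members; filled points were called. Me1 lies at 2.87 and 2.35, and Scd1 falls on opposite sides of 0, at -1.85 for VM-3055 and 1.09 for VIM-3039.

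The third comparison set each tumour type, maintained on Dox, against normal kidney. Scd2, Fasn and Acaca were called higher in all 3 tumour types. Cyp51, Tm7sf2, Acss2, Acacb, Ebp, Mvd and Me1 were called lower in all 3. In MYC tumours 3 of 33 members were higher and 10 lower, beside 19.4% and 17.7% of all genes. In VM tumours 5 were higher and 10 lower, beside 17.3% and 22.5%. In VIM tumours 5 were higher and 10 lower, beside 18.9% and 20.7%. Medians of the members against all genes were -0.37 against 0.12, -0.45 against -0.05 and -0.54 against 0.01. The 3 comparisons share the kidney libraries.

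Cell makeup differed between tumours and kidney. The 3 kidney epithelial markers summed to 8358 to 17544 units in tumours and 18543 to 27106 in kidney. Cdh16 was lower in tumours (6526 to 14725 against 16888 to 23962 units), while Pax8 was higher (1782 to 4154 against 898 to 1217). Epcam was at 14.1 to 926 units in MYC, 5.15 to 6.66 in VM and 49.6 to 668 in VIM tumours, against 758 to 1996 in kidney. The 5 proximal tubule markers summed to 394129 to 1410410 units in kidney and to 1688 to 9770 in tumours, and the 4 loop and distal tubule markers to 65022 to 148423 and at most 5523. The adipocyte markers summed to 1.87 to 1435 units in MYC tumours, with 5 of 7 above the floor in some library, 5.15 to 203.7 in VM tumours (3 of 7), 77.2 to 1056 in VIM tumours (4 of 7) and 0 to 16.4 in kidney (1 of 7). In the first and second VIM tumours most of the sum was Cidec (69.7 and 81.5 units), with Cfd, Plin1 and Lep at 0. In the third VIM tumour most of it was Cfd (899 units), with Adipoq at 82.6. The leukocyte markers summed to 462 to 2098 units in tumours and 315 to 514 in kidney. Of these, Cd68 was at 281 to 1571 units in tumours and 27.7 to 43.01 in kidney. The ranges of Emr1 overlapped (46.9 to 790 and 53.6 to 111 units). Ptprc was at 77.7 to 423.5 units in MYC, 28.9 to 131.8 in VM and 93.6 to 244.8 in VIM tumours, against 216 to 346 in kidney. Cd3e was at 0 to 13.99 units in tumours and 1.63 to 17.7 in kidney. The 3 endothelial markers summed to 134.2 to 1339.6 units in tumours and 1809 to 3147 in kidney. The 4 fibroblast markers summed to 506 to 4264 units in MYC, 277.3 to 816 in VM and 337 to 949.9 in VIM tumours, against 428 to 1356 in kidney. The 4 hepatocyte markers summed to 26.8 to 211.8 units in tumours and 2438 to 9019 in kidney, and the 5 adrenal cortex markers to 67.2 to 146.4 and 60.2 to 84.8. Most of the hepatocyte sum in kidney was Ttr (1479 to 8623 units, against at most 9.18 in tumours). Apoa1 was at 3.09 to 99.8 units in tumours and 1.73 to 16.4 in kidney. The part of all these markers in the results was not tested. KT3 differed from the other 4 kidneys in 22 of the 33 members, 16 of them above and 6 below the range of the others, beside 41.5% and 20.8% of the 15840 genes above 0 in at least 2 kidneys. KT3 had Xist at 20506 and Ddx3y at 69.6 units, KT2 had both (1204 and 1448), and the remaining kidneys had Xist at no more than 3.63 units. All tumour libraries had Ddx3y at 985 to 3238 units and Xist at no more than 15.9. The labels gave no sex. Fits against the kidneys without Xist, which leave out KT2 and KT3, are given below, but the part of sex in the differences from kidney was not tested.

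Scd2 was at 10533, 12890.4 and 10532 units in the MYC tumours, the last 2 being those of mouse 2983, 18494, 18855 and 20021 in VM and 16561, 14638 and 10414 in VIM tumours, against 1539.8, 1832, 1758, 2508 and 3717 in kidney, where KT3 is the last. Every tumour was above every kidney, and the differences were 2.37 ± 0.32, adjusted p = 0.000518, 3.15 ± 0.26, adjusted p = 8.54e-06 and 2.66 ± 0.29, adjusted p = 6.1e-05 in MYC, VM and VIM tumours. Fasn was at 3974, 6926 and 3569 units in MYC, 6159.8, 6661 and 5137 in VM and 3328, 6216 and 1428 in VIM tumours, against 843, 1396, 559.6, 1443 and 1426 in kidney (2.10 ± 0.38, adjusted p = 0.00218, 2.48 ± 0.31, adjusted p = 0.000103 and 1.54 ± 0.47, adjusted p = 0.0198). The third VIM tumour, at the level of the higher kidneys, was the 1 tumour that overlapped kidney in Fasn. Acaca was at 961, 555 and 897 units in MYC, 684, 1059 and 791 in VM and 785, 1149 and 352 in VIM tumours, against 256, 350.4, 284, 362 and 372 in kidney (1.38 ± 0.21, adjusted p = 0.000904, 1.37 ± 0.20, adjusted p = 0.000264 and 1.09 ± 0.34, adjusted p = 0.0223). Elovl6, the elongase, was at 1382, 3373 and 1477 units in MYC, 1739, 3269 and 3136 in VM and 2441, 3391 and 2047 in VIM tumours, against 211, 388, 236, 274 and 2057 in kidney, with KT3 the one high kidney. Elovl6 was called higher in VM (2.69 ± 0.66, adjusted p = 0.00644) and VIM tumours (2.66 ± 0.66, adjusted p = 0.00699) and missed the adjusted p in MYC tumours (2.17 ± 0.81, adjusted p = 0.0525). Without KT3 the MYC difference was 2.76 (adjusted p = 0.000331).

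Me1, the most abundant member per kilobase in kidney (3047 units per kb), was at 11633, 13022, 11469.9, 13181 and 5187 units there. In the tumours Me1 was at 609, 349 and 888 units in MYC, 3422, 3459 and 4021 in VM and 2808, 1506 and 2676 in VIM tumours (-4.07 ± 0.35, adjusted p = 6.31e-05, -1.51 ± 0.29, adjusted p = 0.00159 and -2.20 ± 0.34, adjusted p = 0.000454). Cyp51 was at 7478, 10787, 6137, 6572 and 7933 units in kidney, and at 661, 1387 and 627 units in MYC, 602, 1225 and 1764 in VM and 770.2, 1383 and 600.3 in VIM tumours (-3.22 ± 0.25, adjusted p = 4.09e-05, -2.80 ± 0.32, adjusted p = 5.63e-05 and -3.14 ± 0.28, adjusted p = 1.83e-05). No tumour reached the lowest kidney in either gene. Acss2 was at 5223, 6086, 6149.9, 6743 and 3598 units in kidney, and at 1156, 998 and 1008 units in MYC, 477, 805 and 232 in VM and 605, 763 and 600.3 in VIM tumours (-2.33 ± 0.24, adjusted p = 0.000142, -3.60 ± 0.36, adjusted p = 2.42e-05 and -3.06 ± 0.21, adjusted p = 5.54e-06). Ebp fell by 1.94, 1.89 and 1.56 and Mvd by 1.75, 1.37 and 1.55 in MYC, VM and VIM tumours. Tm7sf2 was at 315, 318, 321, 269 and 306 units in kidney and 26.8 to 72.8, 43.9 to 78.9 and 13.2 to 77.1 in tumours (-2.37, -2.28 and -2.96). Acacb, also lower in all 3, was at 346, 610.2, 299, 355 and 772 units in kidney and 77.2, 455 and 75.3 in VIM tumours, where its call (-1.67 ± 0.59, adjusted p = 0.0361) was lost without KT3 (-1.47, adjusted p = 0.0716).

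Further members were called in 1 or 2 tumour types. Hsd17b7 was lower in MYC (-1.64 ± 0.16, adjusted p = 0.000103) and VM tumours (-1.52 ± 0.27, adjusted p = 0.00103), Sc4mol in MYC (-1.40 ± 0.44, adjusted p = 0.0283) and VIM tumours (-1.03 ± 0.21, adjusted p = 0.00234), and Nsdhl in MYC tumours (-1.20 ± 0.14, adjusted p = 0.000283). Fads2 was lower in VM (-1.22 ± 0.19, adjusted p = 0.000365) and VIM tumours (-2.23 ± 0.23, adjusted p = 4.21e-05), Fads1 in VM (-1.24 ± 0.33, adjusted p = 0.00968) and Stard4 in VIM tumours (-1.46 ± 0.37, adjusted p = 0.0084). Pmvk was higher in VM (1.08 ± 0.19, adjusted p = 0.00103) and Fdps in VIM tumours (1.14 ± 0.28, adjusted p = 0.00727). Idi1 missed the adjusted p in each type (-1.56, -1.03 and -1.01), with KT3 at 1337 units and the other kidneys at 4407 to 5263. Without KT3 it was called lower in all 3 (-1.94, -1.41 and -1.39). Scd1 was at 1354, 3614, 675, 1906 and 29359.9 units in kidney, a range set by KT3, and differed by -0.37 ± 1.30, 0.46 ± 1.0 and -0.31 ± 0.98 in MYC, VM and VIM tumours, with none called. Against the B6 kidneys alone the VIM difference was 1.26 (adjusted p = 0.0324) and the VM difference 2.03. Sqle differed by 0.06 ± 0.16, 0.01 ± 0.26 and 0.24 ± 0.27, Srebf1 by 0.88 ± 0.26, 0.47 ± 0.24 and 0.12 ± 0.23, and Srebf2 by 0.29 ± 0.30, -0.21 ± 0.32 and -0.62 ± 0.32, and none of these was called. The other members, not called in any tumour type, were Mvk, Fdft1, Lss, Dhcr7, Insig1, Insig2, Acly, Elovl1 and Elovl5, with differences from -0.96 to 0.65.

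**Figure D4:**
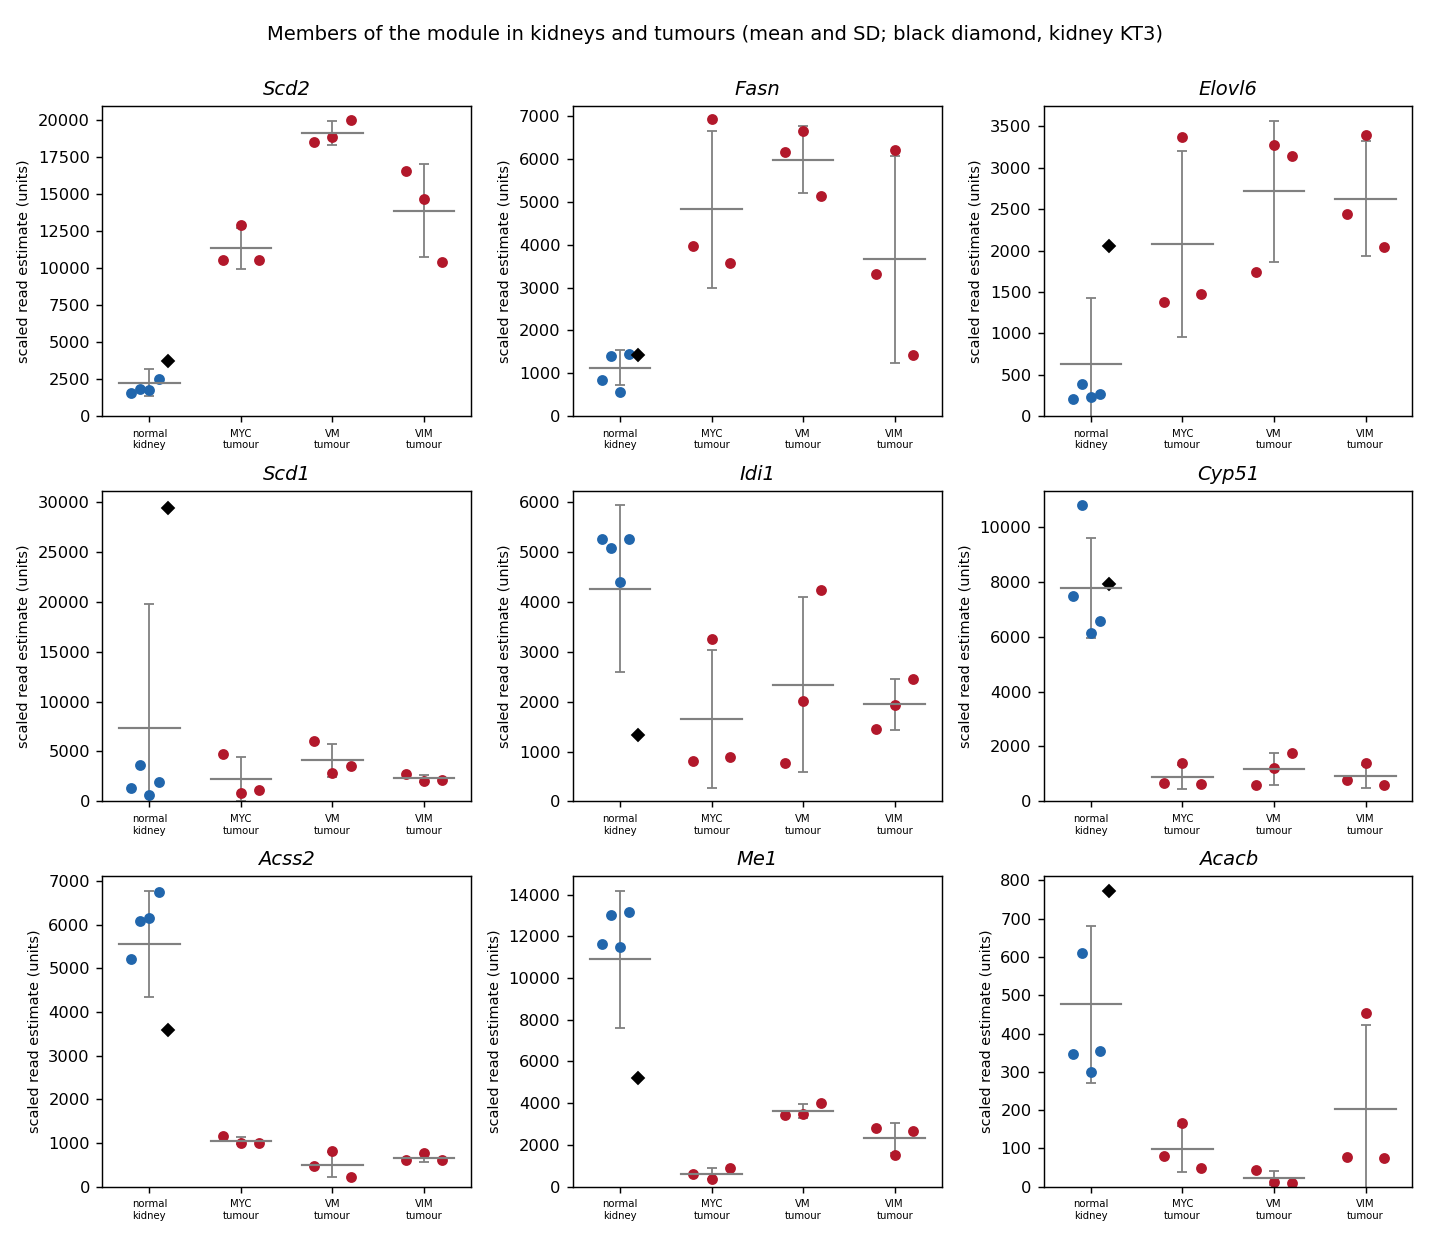
Units of 9 members in each tumour and kidney library, with bars at the mean and SD over libraries (the MYC tumours hold 2 libraries of 1 mouse); the black diamond is kidney KT3. In Scd1 and Elovl6, KT3 (29360 and 2057 units) lies far above the other kidneys, and in Idi1 (1337 units) below them.

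**Figure D5:**
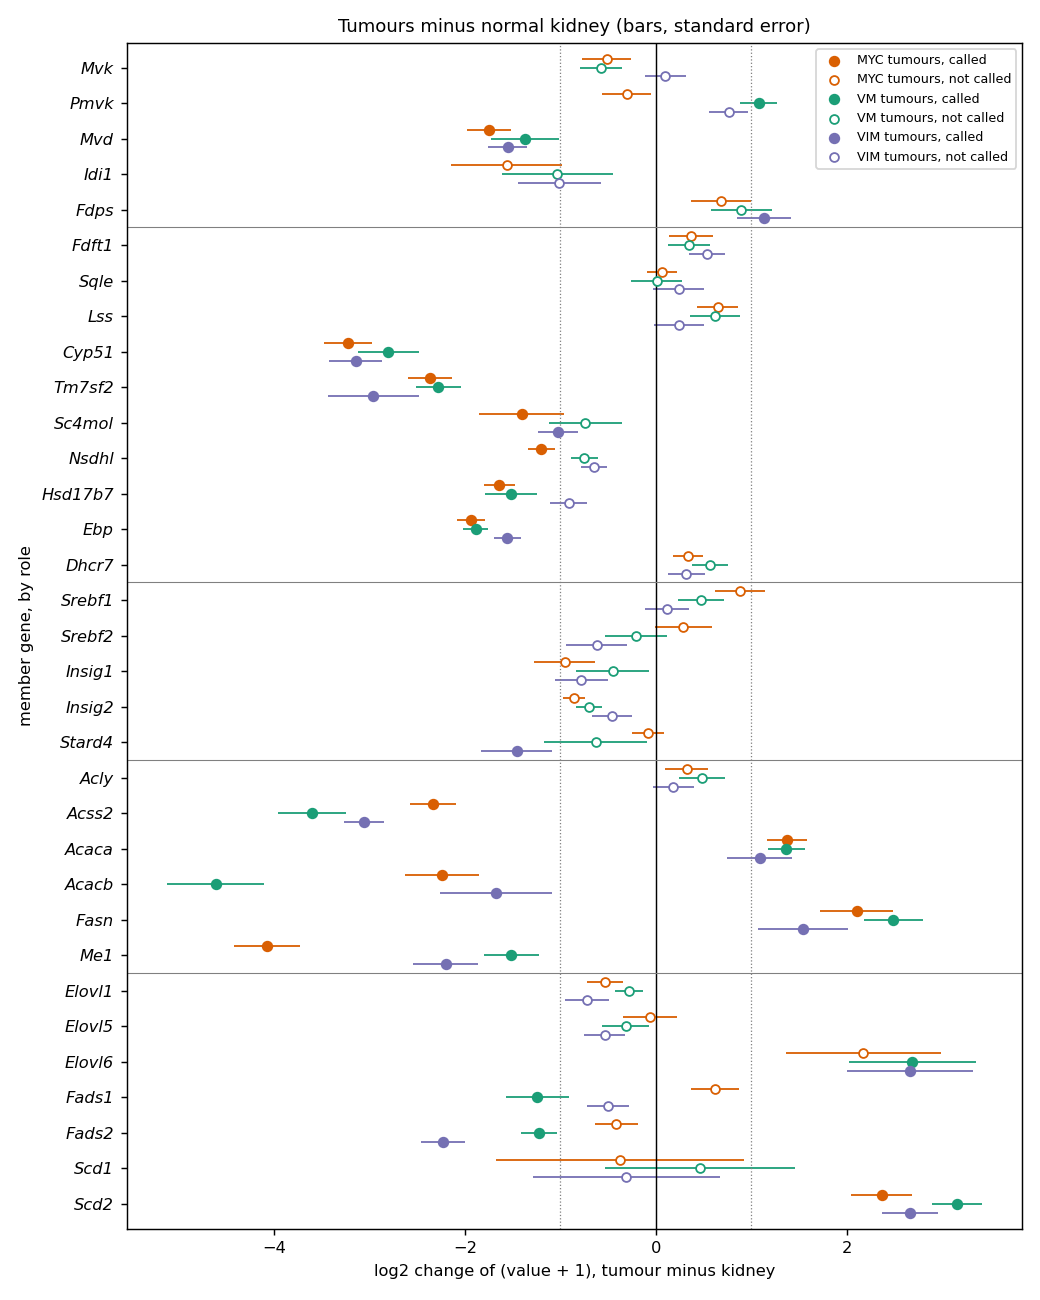
Difference of each tumour type from normal kidney on the log2(value + 1) scale with SE for 33 members (2 mice for MYC, 3 for VM and VIM tumours, 5 kidneys); filled points were called. Scd2 lies at 2.37, 3.15 and 2.66, and Cyp51 at -3.22, -2.80 and -3.14.

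Without KT3 the counts of members higher and lower were 5 and 11 in MYC, 5 and 11 in VM and 5 and 10 in VIM tumours, beside 21% and 18%, 18% and 21.7%, and 19.3% and 19.9% of all genes. In MYC, VM and VIM tumours the differences without KT3 were 2.56, 3.35 and 2.86 for Scd2, 2.21, 2.59 and 1.65 for Fasn, 1.43, 1.42 and 1.14 for Acaca and 2.76, 3.27 and 3.25 for Elovl6, all called. Those of the lower members were -4.32, -1.76 and -2.45 for Me1, -3.21, -2.79 and -3.13 for Cyp51, -2.48, -3.75 and -3.21 for Acss2, -1.90, -1.85 and -1.52 for Ebp, -1.90, -1.52 and -1.70 for Mvd and -2.37, -2.28 and -2.96 for Tm7sf2, all called. Acacb was at -2.04, -4.41 and -1.47, called in MYC and VM tumours. Hsd17b7 was at -1.68 and -1.56 in MYC and VM tumours, Sc4mol at -1.39 and -1.01 in MYC and VIM tumours, Nsdhl at -1.23 in MYC tumours, Fads2 at -1.18 and -2.18 in VM and VIM tumours, Fads1 at -1.10 and Pmvk at 1.18 in VM tumours, and Stard4 at -1.37 and Fdps at 1.22 in VIM tumours, and these calls held. Srebf1 was called higher in MYC tumours without KT3 (1.02, adjusted p = 0.00551).

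Several tumour calls were lost in some fits with 1 library left out, with fewer kidneys or with other settings. In VIM tumours the call of Fasn was lost without the first tumour (1.49, adjusted p = 0.0673) and without the second (1.04, adjusted p = 0.0845), against the KT kidneys alone (1.12, adjusted p = 0.0933) and with no filter (adjusted p = 0.0681). That of Acaca in VIM tumours was lost without the first tumour (0.98, adjusted p = 0.0845) and without the second (0.71, adjusted p = 0.0855), against the B6 kidneys alone (1.34, adjusted p = 0.0876), the KT kidneys alone (0.92, adjusted p = 0.109) and the kidneys without Xist (adjusted p = 0.0509), and with no filter (adjusted p = 0.0617). Sc4mol in MYC tumours lost its call without the first tumour library (-0.43, adjusted p = 0.194), without the third (-0.99, adjusted p = 0.206), with kidneys B61, B62 or KT1 left out in turn (adjusted p of 0.0542, 0.0526 and 0.0578), against either kind of kidney alone, with no filter (adjusted p = 0.0906) and with mouse 2983 as 2 samples (adjusted p = 0.0526). In VIM tumours Sc4mol was at -0.84 without the first tumour and -0.97 without KT1, under the fold threshold. Fads1 in VM tumours was at -0.79 without the third tumour and had an adjusted p of 0.148 against the B6 kidneys alone. Stard4 in VIM tumours was at -0.88 without the first tumour, with an adjusted p of 0.132 against the B6 kidneys alone. Fdps in VIM tumours was at 0.84 without the second tumour. Acacb in VIM tumours was lost without the first (-1.26, adjusted p = 0.154) or the third tumour (-1.24, adjusted p = 0.138), and without KT2 or KT1 (adjusted p = 0.0741 and 0.0517). Mvd in VM tumours had an adjusted p of 0.0587 against the B6 and 0.0529 against the KT kidneys alone. Leaving out 1 library gave further calls, with Fdps at 1.17 in MYC and 1.25 in VM tumours without the first library of each, and Insig1 at -1.44 in MYC tumours without the second. Sc4mol was called in VM tumours without the third (-1.26), and Hsd17b7 (-1.11) and Srebf2 (-1.10) in VIM tumours without the second.

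Of the other pathway genes, 9 of 36 were higher and 9 lower in MYC tumours, 10 and 10 in VM and 8 and 9 in VIM tumours. Elovl4 was higher by 4.88, 5.32 and 2.69 and Abca1 by 3.57, 2.62 and 2.88. Lpin1, a phosphatase of glycerolipid synthesis, differed by -2.17, -3.55 and -2.92.

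The last comparison set the tumour types against each other, and 0 members were called by limma in any pair. At an unadjusted p under 0.05 there were 6 members between VM and MYC, 7 between VIM and MYC and 4 between VIM and VM tumours, with smallest adjusted p of 0.0847, 0.196 and 0.263. The share of all genes under that unadjusted p was not computed, so these counts are not read as a result about the members. Over all genes, 0% were higher and 0% lower in VM against MYC, 0.00616% and 0% in VIM against MYC, and 0.174% and 0.0746% in VIM against VM tumours. Me1 differed by 2.56 ± 0.19 (adjusted p = 0.0847) and 1.87 ± 0.34 (adjusted p = 0.196) in VM and VIM from MYC tumours. Fasn differed by 0.38 ± 0.24 and -0.56 ± 0.59, Scd1 by 0.83 ± 0.66 and 0.06 ± 0.61, Sqle by -0.06 ± 0.40 and 0.17 ± 0.41, Srebf1 by -0.41 ± 0.26 and -0.76 ± 0.25, and Srebf2 by -0.50 ± 0.58 and -0.91 ± 0.58 in the same order, with adjusted p from 0.282 to 0.969. The spread within a type was wide, and also within a mouse: the 2 MYC tumour libraries of mouse 2983 had Idi1 at 3253 and 898, Srebf2 at 4843 and 1887, Cyp51 at 1387 and 627 and Sc4mol at 1295 and 161 units. These 2 libraries also differed in markers, with the loop marker Umod at 2475 and 74.9, the epithelial marker Epcam at 926 and 14.1, the fibroblast marker Col1a1 at 2994 and 159.6, and Cdkn2a at 2872 and 59.3 units, and the part of these in the difference was not tested. Other fits called some members. Me1 was called higher in VM than in MYC tumours with no filter (adjusted p = 0.0241), with mouse 2983 as 2 samples (2.66, adjusted p = 0.0464) and in a fit of all 4 tissue groups (2.56, adjusted p = 0.00417). In that fit Pmvk (1.38) was also called higher and Fads1 (-1.86) lower in VM, Me1 (1.87, adjusted p = 0.0198) and Pmvk (1.07) higher and Fads2 (-1.82) lower in VIM than in MYC tumours, and Acacb higher in VIM than in VM tumours (2.94). The absence of calls in the fits of 2 groups, with 2 or 3 mice a type, does not show that the types were alike.

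Levels between genes were compared per kilobase of exon. Scd2 was the most abundant member in each cell group, at 2919 units per kb with Dox and 2529 without in MYC-2983, 4519 and 4567 in VM-3055, and 5626 and 5270.0 in VIM-3039. It also led in the tumours, at 2076, 3507 and 2544 units per kb in MYC, VM and VIM tumours. In kidney Me1 (3047 units per kb) led, followed by Cyp51 (1815), Scd1 (1526, a mean set by KT3) and Idi1 (1490.0). The ratio of Scd2 to Scd1 per base was 1.01 ± 0.842 in kidney (SD, n = 5), against 7.84 ± 5.8 in MYC, 4.58 ± 1.66 in VM and 5.33 ± 0.97 in VIM tumours (SD, n = 3 libraries).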

How the data were processed

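RNA was measured by paired-end TruSeq Stranded mRNA sequencing in 38 libraries. The deposited values were a normalized signal: the authors aligned reads to mm9 with MapSplice, took alignment profiles with Picard (version 1.64), sorted and indexed with SAMtools, filtered with UBU, used RSEM to estimate counts per UCSC known gene, and then brought the upper quartile of every library to 1000. Such values are relative to each library's quartile and are not divided by gene length. Whole reads could be recovered for 94.1 to 95.9% of low values only (within 0.02 reads, values under 20 reads), so no count model was run. Depth was inferred from the same low values, and the floor of 3 reads covers counting error only.

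Values were compared as log2(value + 1) with limma (version 3.58.1, R 4.3.3; empirical Bayes with a mean trend, two-sided), a comparison's groups alone in each fit. Genes above 0 in at least 4 cell libraries or 2 tissue samples were tested, and a call needed a Benjamini-Hochberg adjusted p under 0.05 over all genes tested and a log2 difference over 1. Libraries of 1 mouse were averaged. The fit was tested on simulated data. Pathway and marker lists and the members were chosen with earlier results of these data known. The named genes were, by rule, every called member (the 5 highest and 5 lowest where more than 10 were called, widened here to all called) and always Hmgcs1, Sqle, Fasn, Scd1, Srebf1 and Srebf2; every other member is given by its value, chosen after the values were seen. Alternatives were other pseudocounts (0.1 and 10), no filter and a mean of at least 10, TMM and quantile scaling, joint fits, the replicate block, subsets of kidneys and each library left out; kidneys without Xist were added after seeing the data. Same-numbered VM-3055 and VIM-3039 libraries were checked for shared deviations (mean correlations of -0.0735, 0.00892 and 0.0249), and the numbers did not pair the samples. Tables and plots were made with Python 3.11.15, pandas 2.3.3 and matplotlib 3.10.9.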

Additional observations from a re-analysis of the deposited data

Results flagged for a closer look

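In 18 of 231 sets of 4 or 5 libraries of 1 group and 1 member, the highest or lowest library lay further from the others than Dixon's 95% limit, where chance gives about 1 in 20, or 11.55 sets. Kidney KT3 accounted for 7 of them. It was the lowest kidney for Mvd (747.6 units, the others at 1188 to 1344), Idi1 (1337 against 4407 to 5263) and Me1 (5187 against 11470 to 13181). It was the highest for Srebf2 (2171 against 1639 to 1785), Elovl5 (1922 against 1033 to 1228), Elovl6 (2057 against 211 to 388) and Scd1 (29360 against 675 to 3614). Kidney KT1 was the lowest for Tm7sf2 at 268.7 units, the others being at 306 to 321, and the highest for Insig1 at 1726, the others being at 800.0 to 1055.

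Among the cells, the second MYC-2983 library with Dox had Scd2 at 15467 units (the others at 16057 to 16084), and the fourth without Dox had Acss2 at 233.9 units (252.7 to 256.4). In VM-3055 the fourth library with Dox had Acaca at 1523 units (1716 to 1746), and the second without Dox had Hsd17b7 at 1200 units (1092 to 1108). The first VIM-3039 library with Dox had Hsd17b7 at 1446 units (1356 to 1368) and Srebf1 at 1009 (953 to 959). Without Dox, the fourth VIM-3039 library had Srebf1 at 1306 units (1195 to 1214), and the second had Me1 at 4122 units (4017 to 4033) and Acacb at 0 (2.85 to 3.32). No cell library held more than 2 outliers. The number given by chance was not worked out for the cells apart, so their outliers are not read as results about the members.

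The response of Acacb to Dox differed between lines by the interaction test in limma, by 1.20 on the log2(value + 1) scale between VM-3055 and MYC-2983 (adjusted p = 0.00958) and by -1.82 between VIM-3039 and VM-3055 (adjusted p = 0.0142). Acacb was at or under 3 reads in 2 of 4 VM-3055 and 3 of 4 VIM-3039 libraries without Dox.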

How the results depend on the processing

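Of 8645 recomputed member differences, 8510 kept their side of the threshold, 68 lost and 66 gained a call. The remaining 1 reversed: Scd1 in VIM tumours was 1.26 against the B6 kidneys alone. Of the 8510, 193 changed sign while uncalled both times. Of 524 recomputed counts 31 moved by over 1.5 times or to or from 0. With a pseudocount of 10, the count lower with Dox in VM-3055 was 1, the VM-3055 minus MYC-2983 interaction had 0 higher and VIM-3039 minus MYC-2983 had 1 lower. With a pseudocount of 0.1, or no filter, the VIM-3039 minus VM-3055 interaction had 0 lower. TMM and quantile scaling gave 0 lower with Dox in VM-3055 and 1 lower in VIM-3039 against MYC-2983, and quantile scaling 1 lower in the VIM-3039 minus MYC-2983 interaction. One fit over all 6 cell groups gave 0 higher in the VM-3055 minus MYC-2983 interaction. Without Dox, VM-3055 against MYC-2983 had 3 higher and 4 lower, VIM-3039 against MYC-2983 1 lower, and VIM-3039 against VM-3055 5 higher. B6 kidneys alone gave 5 higher in MYC tumours, KT kidneys alone 2 higher in VIM tumours, kidneys without Xist (chosen after seeing the data) 4 higher and 11 lower in MYC, 6 and 9 in VM and 4 and 10 in VIM tumours, and no filter 3 higher there. For VM against MYC tumours, no filter gave 1 higher, mouse 2983 as 2 samples 1 higher, and a fit of all 4 tissue groups 2 higher and 1 lower; that fit gave 2 higher and 1 lower for VIM against MYC and 1 higher for VIM against VM tumours. The cause was not tested. Leaving out 1 library at a time gave 1 to 2 lower with Dox in VM-3055 (1 without Dox replicate 4), 4 to 5 higher in VIM-3039, 0 to 1 higher in the VM-3055 minus MYC-2983 interaction (0 without VM-3055 replicate 3 lacking Dox), 0 to 1 lower in the VIM-3039 minus MYC-2983 one (1 without VIM-3039 replicate 2 lacking Dox), 3 to 5 higher and 9 to 12 lower in MYC tumours (5 higher without KT3), 5 to 6 and 10 to 11 in VM tumours, and 2 to 5 higher and 7 to 12 lower in VIM tumours (2 higher without tumour 2, 3 without tumour 1). The replicate block left 7 higher and 2 lower in VM-3055, 5 and 3 in VIM-3039, 0 and 1 in the VIM-3039 minus VM-3055 interaction and 3 and 1 in VIM-3039 against VM-3055, and changed no count. No paired analysis was possible because no replicate numbers were shared for MYC-2983 and tissue. The median difference of all genes with a mean of at least 10 was -0.21 with Dox in VM-3055 and -0.12 in VIM-3039, -0.17 and -0.14 in VM-3055 and VIM-3039 against MYC-2983, and -0.14 in VM against MYC tumours.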
